A study of Homo sapiens with 6 samples.

Results

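The genes of the cytosolic ribosomal proteins were examined in BxPC-3, an established cell line derived from a human pancreatic adenocarcinoma. The members were chosen by their symbol and by their measured level, which had to average 1 FPKM or more across the 6 libraries. FPKM counts the fragments of a gene relative to its exon length and to the mapped fragments of its library. Of 26255 gene symbols in the files, 77 had a symbol of this family and 76 passed the limit, 46 of the large and 30 of the small ribosomal subunit. Just inside the limit stood RPL27A, with a mean of 130 FPKM, so the level set no boundary within the family.

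A ribosome is built from ribosomal RNA and about as many proteins as there are genes in this family, and each protein is needed in a single copy, except for the paired stalk proteins. The small subunit reads the mRNA and the large subunit forms the peptide bonds. The mRNAs of ribosomal proteins are among the most abundant of a growing cell. Most begin with a C followed by a run of pyrimidines, the terminal oligopyrimidine (TOP) start, through which mTOR signalling and LARP1 set their translation and stability together.

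The groups were Parent, cells with no treatment, NC-1, cells transfected with a negative control RNA duplex, and miR-4711-5p, cells transfected with a duplex of that miRNA. Each group had 2 libraries, and RNA was taken 36 h after transfection according to the methods. All libraries come from a single cell line, and no label says whether the libraries of a group came from separate cultures, so that p-values measure a spread that may be technical. The study used these libraries to look for mRNAs that miR-4711-5p lowers.

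The epithelial keratin genes KRT7, KRT8, KRT18 and KRT19 stood between 900.9 and 1789 FPKM in the group means, and of 14 markers of blood, stromal, vascular, acinar and islet cells 12 had a mean below 1 FPKM. The exceptions were PRSS1, of acinar cells, at 0.684 to 5.102 FPKM and called higher against Parent in both transfected groups, and COL1A1, of fibroblasts, at 1.24 to 2.35 FPKM. Their part in the results was not tested. All 7 epithelial markers were called with miR-4711-5p against NC-1, 3 higher and 4 lower. Of all genes tested, 18.4% were called higher and 21.2% lower. CDH1 and MUC1 were among the 4 lower. The means in Parent, NC-1 and miR-4711-5p were 115.3, 109.5 and 29.58 FPKM for CDH1 and 30.36, 24.44 and 15.08 for MUC1. FPKM summed to between 493145 and 550772 per library, highest in Parent and lowest with miR-4711-5p. The steps between low values gave depths of 0.753 to 1.21 relative to the first Parent library, and the depth in reads is unknown.

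The start of transcription is what these genes share in sequence, so it is shown for the members on which the comparisons turn. RefSeq starts on GRCh38.p14 were available for 62 of the 76 members. In 53 of the 62 (85.5%), a C followed by at least 4 further pyrimidines began within 5 bases of an annotated start. Among the genes tested with a RefSeq start the share was 29.7% of 8975. Each line gives 30 bases before and 20 bases from the start on, 5′ to 3′, with that run in capitals. The members shown first had such a run. RPS27A, RPLP0, RPL36A and RPLP1 were lower with miR-4711-5p, RPS13 and RPL26 were lower in NC-1, and RPL41 had the highest level.
RPS27A (chr2:55232658-55232707, plus strand): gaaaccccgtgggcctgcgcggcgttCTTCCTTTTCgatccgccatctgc
RPLP0 (chr12:120201092-120201141, minus strand): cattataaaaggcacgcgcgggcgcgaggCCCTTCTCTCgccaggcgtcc
RPL36A (chrX:101390981-101391030, plus strand): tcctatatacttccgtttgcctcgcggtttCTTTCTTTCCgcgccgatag
RPLP1 (chr15:69452788-69452837, plus strand): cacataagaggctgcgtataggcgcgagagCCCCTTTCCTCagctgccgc
RPS13 (chr11:17077648-17077697, minus strand): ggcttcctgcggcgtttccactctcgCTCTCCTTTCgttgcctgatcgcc
RPL26 (chr17:8383174-8383223, minus strand): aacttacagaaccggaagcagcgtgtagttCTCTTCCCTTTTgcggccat
RPL41 (chr12:56116603-56116652, plus strand): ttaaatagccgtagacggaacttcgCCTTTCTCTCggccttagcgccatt

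In 9 members with a RefSeq start no such run lay within 5 bases of it. They were RPL6, RPL9, RPL15, RPL17, RPL27, RPS4X, RPS15, RPS26 and RPS29. The windows of RPL9, RPL15 and RPS4X are shown because these genes differed most between groups among them, and the third of the annotated starts is given for RPL15.
RPL9 (chr4:39458903-39458952, minus strand): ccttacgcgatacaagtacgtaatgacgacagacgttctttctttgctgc
RPL15 (chr3:23917102-23917151, plus strand): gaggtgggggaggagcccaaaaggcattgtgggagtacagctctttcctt
RPS4X (chrX:72277229-72277278, minus strand): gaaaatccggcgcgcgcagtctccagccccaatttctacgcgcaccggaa

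The difference from other genes was largest at the first base of the RNA. It was C or T at 72.7% of the 77 starts of members and at 13.8% of the 13055 starts of genes tested, which mostly begin with a purine. The string CTTTCC lay within 20 bases of the start, on the sense strand, in 20 of the 62 members (32.3%) and in 3.08% of genes tested, and it overlaps the pyrimidine run. In the 300 bases from 250 before to 50 after the start, CCGGAAG, an ETS-type motif, was found on either strand in 35.5% of members and 23.4% of genes tested. AAGATGG, a core of the YY1 motif, was found on either strand in 12.9% and 9.82%, and TATAAA on the sense strand within 50 bases before the start in 3.23% and 2.31%. A match of letters is a description and shows no binding.

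**Figure D1:**
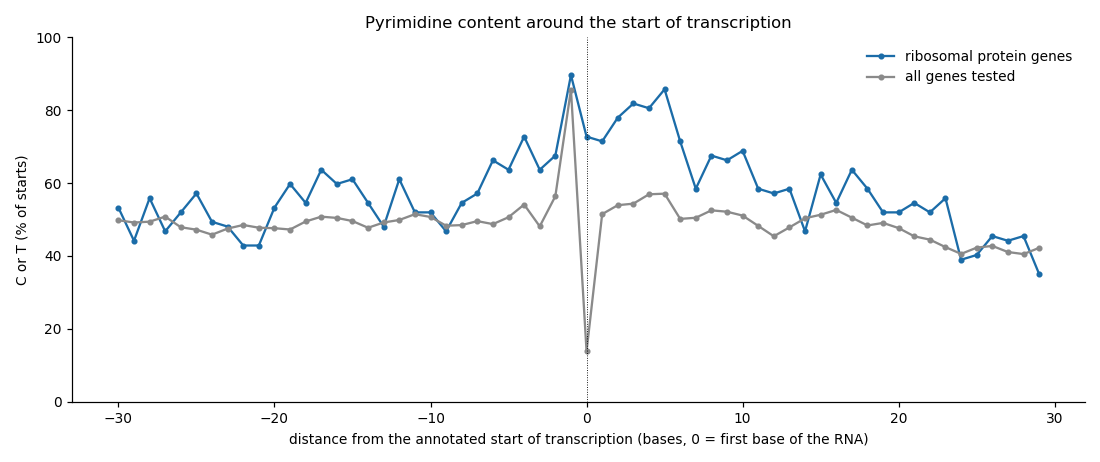
Share of annotated starts with C or T at each distance from the start of transcription, for 77 starts of ribosomal protein genes (blue) and 13055 starts of all genes tested with a RefSeq entry (grey). At the first base the shares are 72.7% and 13.8%, and the blue line stays above the grey line over the next bases.

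Grouped by their start, the 53 members with the run had a median log2 fold change of -0.02 for miR-4711-5p against NC-1. The 9 without it within 5 bases of an annotated start had 0.01. In the windows of RPL9 and RPL15, a pyrimidine run lies further from that start, so the 9 need not lack a TOP start. Against Parent the medians were -0.15 and -0.24. Both groups held members that were lower and members that were higher against NC-1.

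The mature sequence of miR-4711-5p, from RefSeq (chr1:59733269-59733291 on GRCh38.p14, minus strand), is shown with its seed, bases 2 to 8, in capitals, since pairing of the seed with an mRNA is how a miRNA finds a target.
hsa-miR-4711-5p: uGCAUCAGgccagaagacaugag

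The seed pairs with CTGATGC (7mer-m8), with TGATGCA (7mer-A1) or with CTGATGCA (8mer). GENCODE transcripts on GRCh37 matched all 76 members and 10597 of the 12040 genes tested by symbol. Counting the longest annotated 3′ UTR, 8 members (10.5%) and 18.5% of the genes matched had a site. The longest 3′ UTR had a median of 525 nt in the members and 1503 nt in the genes matched. The 2 sites of RPS29, which was higher against NC-1, and those of members with no call are not shown. Sites in the 3′ UTR of members that were lower with miR-4711-5p, and the 8mer of RPL14, are shown with up to 10 bases on each side and the site in capitals.
RPL9, 3′ UTR, 7mer-A1 (chr4:39455779-39455785, minus strand, in all 6 coding transcripts): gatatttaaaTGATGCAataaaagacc
RPLP1, 3′ UTR, 7mer-m8 (chr15:69748026-69748032, plus strand, in 1 of 3 coding transcripts): ttagacaatcCTGATGCtaacaagaag
RPS3, 3′ UTR, 7mer-A1 (chr11:75117486-75117492, plus strand, in 1 of 8 coding transcripts): tgcttcctggTGATGCAgcctggctga
RPS3, 3′ UTR, 8mer (chr11:75113989-75113996, plus strand, in 1 of 8 coding transcripts): taagatagacCTGATGCAaaatagctta
RPL14, 3′ UTR, 8mer (chr3:40509705-40509712, plus strand, in 2 of 3 coding transcripts): tgatgtttatCTGATGCAcattgccaat

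RPS27A, RPLP0, RPL15 and RPL36A, the members with the largest decreases described below, had no site in any coding transcript. Of the 9 members whose annotated 3′ UTRs held a site, 3 were called lower and 1, RPS29, higher against NC-1, with a median log2 fold change of -0.04. Of the 61 members with no site in a 3′ UTR or coding sequence, 11 were called lower and 6 higher, with a median of -0.02. Among all genes tested, 21.2% were called lower and 18.4% higher against NC-1. A match in sequence does not show that the miRNA acts there.

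The level of the family was high, and its share of the summed FPKM was nearly even between libraries. The members summed to 104047 and 101640 FPKM in Parent, 93257 and 93888 in NC-1, and 88520 and 92032 with miR-4711-5p. The median member had 1062 FPKM, 42 members had a mean of at least 1000 FPKM among 72 genes that did, and 54 or 55 of the 100 highest genes of each library were members. Together they held 18.9% and 18.7% of the summed FPKM in Parent, 18.1% and 18.2% in NC-1, and 18.0% and 18.4% with miR-4711-5p. The large subunit made up 10.5% to 11.1% and the small subunit 7.43% to 7.81%. Over all members, the mean log2 level of the large subunit was 0.31 to 0.37 below that of the small subunit in each library.

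Although the proteins other than the paired stalk proteins are needed in equal numbers, the FPKM of the members spanned 36.8-fold. RPL41, which encodes a peptide of 25 residues, had the highest mean, 4801 FPKM, followed by RPLP1 at 4639, RPS2, RPL39 and RPS21. The lowest were RPL27A at 130, RPS23 at 159.6, RPL21, RPL13 and RPL34 at 245. RPL41 ranged from 4269 to 5296 FPKM over the 6 libraries and RPL27A from 124 to 136, so that the difference between them was far wider than the spread of either gene.

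The levels have to be read beside the copies of these genes in the genome and the length of their transcripts. The annotation on GRCh37 holds 1575 pseudogenes named after the 76 members, from 1 for RPLP2 to 133 for RPL21, and reads of a member can be assigned to such a copy. Of the lowest members, RPL27A, RPS23 and RPL13 had 4, 10 and 6, beside a median of 14, and RPL34 had 21. The canonical transcripts of RPL27A, RPS23 and RPL13 had 4535, 3252 and 2187 nt, beside a median of 827 nt. Those of RPL34 and RPL21 had 546 and 566 nt. FPKM is relative to exon length, and the part of length was not tested. The files hold rows for 31 of these pseudogenes, and in 2 of them the mean was at least 100 FPKM. These were RPL13AP5 and RPL21P28.

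RPL21 was the member with the widest spread between libraries of a group. It was at 291 and 232 FPKM in Parent, 72.8 and 249 in NC-1, and 70.7 and 200.3 with miR-4711-5p. The low values were the first library of NC-1 and the first of miR-4711-5p, and the ranges of these groups overlapped. RPL21P28 was at 1087 and 1200 FPKM, 1255 and 1035, and 1185 and 1129 in the same libraries. It was highest where RPL21 was low in NC-1 and likewise with miR-4711-5p. The sum of both rows, 1256 to 1432 FPKM, varied less than RPL21 itself, which made up between 5.48% and 21.1% of it. The log2 fold change of RPL21 against Parent, -1.12 with a standard error of 0.62, was the most negative of the family and did not pass the test (limma adjusted p = 0.184).

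RPL13A stood beside its copy in a more even way. The gene ranged from 385 to 436 FPKM and RPL13AP5 from 1807 to 2124, and RPL13A made up 15.6% to 19.0% of their sum. The value of RPL13A is therefore a part of what the pair of rows holds, and how reads were divided between them was not tested.

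**Figure D2:**
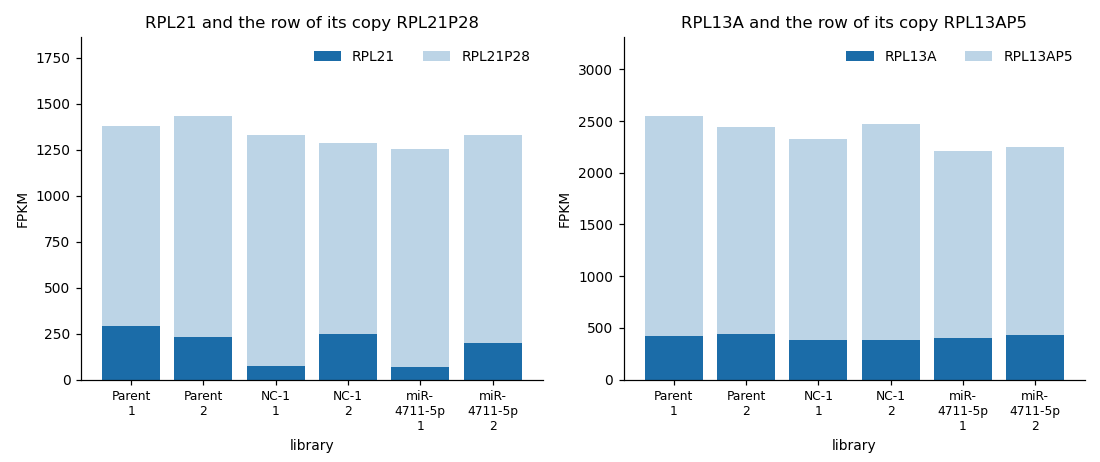
FPKM of RPL21 with RPL21P28 (left) and of RPL13A with RPL13AP5 (right) in each of the 6 libraries, stacked so that the bar height is the sum of both rows. RPL21 falls to 72.8 and 70.7 FPKM in the first library of NC-1 and the first of miR-4711-5p, while the sum stays between 1256 and 1432.

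The limit of 1 FPKM on the mean left 12040 genes, all 76 members among them, which were compared between groups with limma on log2(FPKM + 1), two-sided, with Benjamini-Hochberg adjustment over all of them, and called at an adjusted p below 0.05. The smallest p that 2 libraries against 2 allow in an exact permutation test is 0.333, and each adjusted p therefore depends on limma's sharing of the spread between genes. The 3 comparisons share libraries with each other, and their values are set side by side and are not independent.

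With miR-4711-5p against NC-1, 16 members were called lower and 7 higher, or 21.1% and 9.21%, where 21.2% and 18.4% of all genes tested were called. The share called lower was near that of all genes. The median log2 fold change was -0.03 in the members and 0.00 in all genes tested, and it became 0.02 when the libraries were rescaled to an equal sum of FPKM and 0.04 under quantile normalization. Both rescalings thus turned the sign of the family's median, and they called 13 lower and 15 higher with the equal sum and 12 lower and 19 higher with quantile normalization. The number of lower members was 9 without the first miR-4711-5p library, and that of higher members was 3 without it, 2 without the second miR-4711-5p library and 4 without the first NC-1 library.

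With miR-4711-5p against Parent, 43 members were called lower and 0 higher, where 24.7% of all genes tested were called lower and 18.7% higher. In NC-1 against Parent, 26 were called lower and 0 higher, beside 15.1% and 12.1% of all genes tested. At an unadjusted p below 0.05, the counts of higher members were also 0 in both comparisons. The median log2 fold changes were -0.16 and -0.12, beside -0.01 in all genes for both. The direction depended on the scale, since rescaling to an equal sum of FPKM brought the medians to -0.02 and -0.04 and quantile normalization to 0.03 and 0.00. The rescaling to an equal sum moved the median of all genes by over 0.1, to 0.11 for miR-4711-5p against Parent, and relative to it the members stood at -0.13, where they stood at -0.15 on the scale as deposited. Without the first Parent library the counts of lower members were 17 and 3, without the second 23 and 11, without the first miR-4711-5p library 15 and 15, without the second 28 and 15, and without the first or the second NC-1 library 48 and 11 or 48 and 17. Quantile normalization forces the distributions of the libraries to be equal, and relative to all genes the members then stood at 0.03.

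Other genes of high level also had negative medians on the scale as deposited. At or above 130 FPKM, the level of the lowest member, 536 other genes had median log2 fold changes of -0.06 against NC-1 and -0.19 against Parent for miR-4711-5p, and -0.11 for NC-1 against Parent. With an equal sum these medians were 0.00, -0.05 and -0.03. Of these genes, 314 (58.6%) were called lower in miR-4711-5p against Parent, beside 56.6% of the members. At 300 FPKM and above, 69.3% of 176 other genes were called lower in miR-4711-5p against Parent, with a median of -0.24. Their medians were -0.11 for miR-4711-5p against NC-1 and -0.12 for NC-1 against Parent, where the members had -0.03 and -0.12. Against NC-1, 36.4% of the 536 genes were called lower and 17.4% higher, beside 21.1% and 9.21% of the members. The median of the members for miR-4711-5p against Parent, -0.16, was thus less negative than in these sets, and the part of the level in it was not tested.

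**Figure D3:**
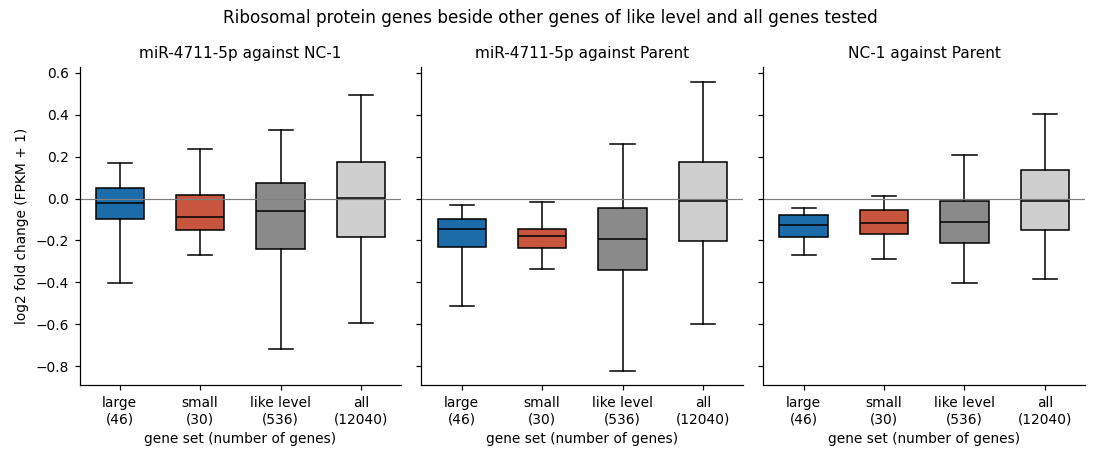
Log2 fold change on the scale as deposited of the 46 large and 30 small subunit genes, of 536 other genes at or above the level of the lowest member, and of all 12040 genes tested, in each comparison. Boxes give the quartiles, the line the median and the whiskers the 5th and 95th percentiles. The members and the other genes of like level lie below 0 against Parent (medians of the members -0.16 and -0.12, which become 0.03 and 0.00 under quantile normalization).

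The subunits were set side by side, with no test of the difference. Against NC-1, 8 large subunit genes (17.4%) were lower and 4 higher of 46, and 8 small subunit genes (26.7%) were lower and 3 higher of 30, beside the 21.2% and 18.4% of all genes. The median log2 fold changes were -0.02 and -0.09, a difference of 0.07. Against Parent, miR-4711-5p had 22 lower of the large (47.8%) and 21 of the small subunit (70.0%), beside 24.7% of all genes, with medians of -0.15 and -0.18, which became -0.01 and -0.04 with an equal sum of FPKM and 0.05 and 0.01 under quantile normalization. NC-1 had 15 (32.6%) and 11 (36.7%), beside 15.1%, with medians of -0.13 and -0.12, which became -0.04 and -0.03 with an equal sum and 0.00 and 0.01 under quantile normalization. The counts with an equal sum were 8 and 6 for miR-4711-5p and 4 and 4 for NC-1. The differences between subunits, large minus small, were 0.03 and -0.01 there. The difference of mean log2 level is another measure than these medians. It was -0.311 in Parent, -0.339 in NC-1 and -0.321 with miR-4711-5p, and varied by 0.0292 (SD) between libraries of a group. The value of 0.07 became 0.01 under quantile normalization and 0.03 without the first NC-1 library.

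In 31 members both libraries with miR-4711-5p lay below each of the 4 control libraries, 14 of the large and 17 of the small subunit, and in 0 members above them. Of all genes tested, 26.3% lay below and 23.8% above. These counts are on the scale as deposited, where the summed FPKM was lowest with miR-4711-5p and other genes of high level also had negative medians.

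RPS27A had the largest called decrease against both references. Its mRNA encodes ubiquitin fused to a small subunit protein, so it supplies both. It was at 1002 and 985 FPKM in Parent, 1012 and 928 in NC-1, and 619.6 and 660.3 with miR-4711-5p. The values with miR-4711-5p were the lowest, without overlap, and the control groups overlapped. Against NC-1 it fell by 34.0%, a log2 fold change of -0.60 with a standard error of 0.05 and an adjusted p of 0.000215 by limma. Against Parent it had -0.63, and NC-1 against Parent had -0.04. FAU, whose mRNA encodes a small subunit protein fused to a ubiquitin-like one, had a log2 fold change of 0.00 against NC-1 and was not called there.

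RPLP0 anchors the lateral stalk of the large subunit, on which translation factors of the GTPase kind dock, and RPLP1 and RPLP2 form its flexible arms. RPLP0 was at 2353 and 2346 FPKM in Parent, 2191 and 2221 in NC-1, and 1608 and 1668 with miR-4711-5p. It had a log2 fold change of -0.43 ± 0.04 (standard error) against NC-1, with an adjusted p of 0.000183 by limma, and of -0.52 against Parent. RPLP1 was at 5361 and 4930 FPKM, 4772 and 4826, and 3855 and 4087 in the same order. Both genes were lowest in the miR-4711-5p libraries without overlap. The log2 fold change of RPLP1 was -0.27 against NC-1 (limma adjusted p = 0.00566), a call that was lost without the first miR-4711-5p library. RPLP2, the partner of RPLP1, was at 1516 and 1426, 1544 and 1367, and 1411 and 1465 FPKM. Its groups overlapped, with a log2 fold change of -0.01 (limma adjusted p = 0.874). The stalk genes thus had unequal values, though the difference between RPLP1 and RPLP2 was not tested.

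Of the other members at the bottom of the order against NC-1, all 3 belong to the large subunit. RPL15 was at 373.5 and 371 FPKM in Parent, 342 and 365 in NC-1, and 266 and 262 with miR-4711-5p, a log2 fold change of -0.42 against NC-1 (limma adjusted p = 0.000411). RPL36A, which lies by the exit site for tRNA, was at 652 and 656, 565.5 and 575, and 415 and 445 FPKM, a log2 fold change of -0.41 (limma adjusted p = 0.000484). RPL9, which lies near the base of the stalk, was at 1019 and 1013, 1015 and 925, and 719.7 and 753 FPKM, a log2 fold change of -0.40 (limma adjusted p = 0.00118). In each of them the miR-4711-5p libraries were the lowest. RPL36A was also lower in NC-1 than in Parent, by -0.20 (limma adjusted p = 0.0184). That call held in 8 of the 16 other settings and was lost with an equal sum of FPKM (-0.11), under quantile normalization (-0.08) and without any of the Parent or NC-1 libraries in turn (-0.18 to -0.21). Its retrocopy RPL36AL, an expressed gene of its own, had 0.10 against NC-1 and was not called.

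**Figure D4:**
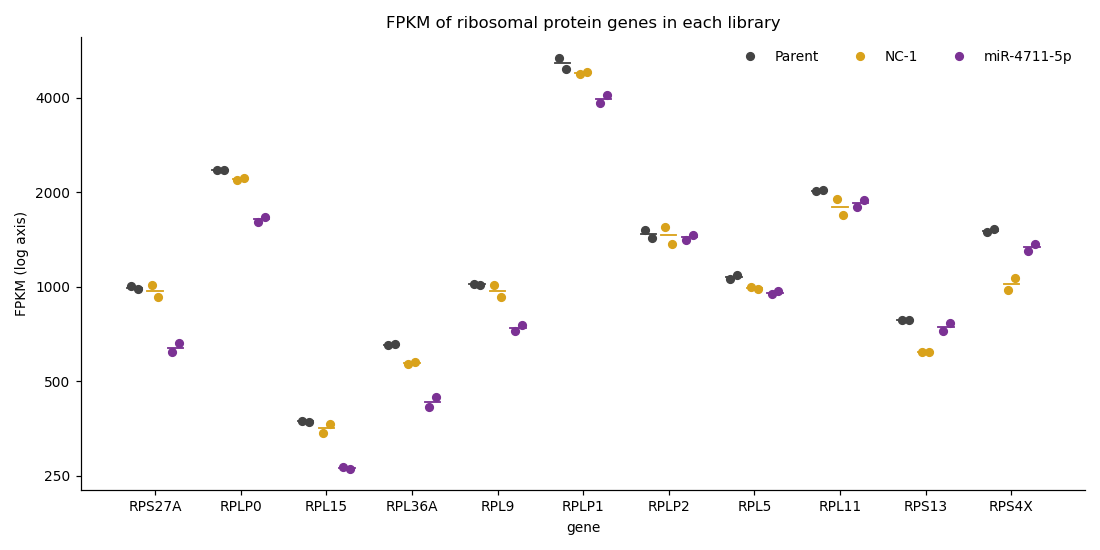
FPKM (log axis) of 11 ribosomal protein genes in each library, with the 2 libraries of a group as points and their mean as a line. RPS27A, RPLP0, RPL15, RPL36A, RPL9 and RPLP1 are lowest in both miR-4711-5p libraries, RPLP2 overlaps between groups, and RPS13 and RPS4X are lowest in NC-1.

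The remaining members called lower against NC-1 had smaller changes, from -0.13 for RPL3 to -0.28 for RPS26. RPS26, which contacts the mRNA upstream of its start codon, was at 908 and 911 FPKM in Parent, 948 and 877 in NC-1, and 750.2 and 752 with miR-4711-5p (limma adjusted p = 0.00297). RPSA, also known as the laminin receptor, was at 985 and 947, 932 and 928, and 774 and 798 FPKM, a log2 fold change of -0.24 (limma adjusted p = 0.00299). RPL10, which joins the large subunit late in its maturation, was at 549 and 531.5, 535 and 519, and 448 and 451 FPKM, a log2 fold change of -0.23. In all 3 genes the miR-4711-5p libraries lay below the 4 others. RPS3, at the entry of the mRNA channel, had a log2 fold change of -0.22 and RPS12 of -0.26, and RPS2, RPS3A and RPL7A lay between -0.15 and -0.22. Of the 16 other settings, the call of RPS12 held in 13, RPS3A in 12, RPL7A in 10, RPS3 in 7, and RPS2 and RPL3 in 5 each. Over these settings the log2 fold change of RPS2 ranged from -0.19 to 0.07.

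Of the 16 members lower against NC-1, 8 were called under each of the 16 other settings tried, among them RPL9, RPL15, RPL36A, RPLP0, RPS26, RPS27A and RPSA. For the 43 members lower against Parent, the number was 6: RPL9, RPL15, RPL36A, RPLP0, RPLP1 and RPS27A.

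The 7 members that rose against NC-1 had another pattern. RPS4X, an X-linked protein of the small subunit, was at 1492 and 1523 FPKM in Parent, 974 and 1066 in NC-1, and 1302 and 1366 with miR-4711-5p. The NC-1 libraries were the lowest and the miR-4711-5p libraries lay between the other groups. It had a log2 fold change of 0.39 ± 0.05 (standard error) for miR-4711-5p against NC-1, with an adjusted p of 0.0013 by limma, -0.56 for NC-1 against Parent (limma adjusted p = 0.00109) and -0.18 for miR-4711-5p against Parent (limma adjusted p = 0.0305). RPS13, of the small subunit, was at 785 and 783 FPKM, 618.5 and 619.6, and 724 and 764 in the same order. It had 0.26 against NC-1 (limma adjusted p = 0.00224), and NC-1 had -0.34 against Parent. These calls of RPS4X and RPS13 against NC-1, and those of NC-1 against Parent, held under each of the 16 other settings. The call of RPS4X for miR-4711-5p against Parent held in 8 of them.

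RPL26, RPS29, RPL13, RPL36 and RPL30 completed the 7. RPL26, which lies at the exit of the peptide tunnel, was at 1049 and 1052 FPKM in Parent, 833 and 919 in NC-1, and 1022 and 1035 with miR-4711-5p. RPL13 was at 212 and 200.1, 166 and 168.5, and 188 and 195 FPKM. Their log2 fold changes against NC-1 were 0.23 and 0.20, and those of RPS29, RPL36 and RPL30 were 0.20, 0.18 and 0.15 (limma adjusted p = 0.0245, 0.0255 and 0.0479). In NC-1 against Parent the 5 genes had -0.26, -0.20, -0.30, -0.21 and -0.26, and in miR-4711-5p against Parent -0.03, 0.00, -0.10, -0.03 and -0.11, none of which was called. Each of the 5 lost its call against NC-1 in some of the 16 other settings, RPL30 in 10, RPS29 in 8, RPL36 in 6, RPL26 in 3 and RPL13 in 2. Leaving out the second miR-4711-5p library ended the call of all 5, and leaving out the first that of all but RPL13. These values share the NC-1 libraries, so the rise and the decrease are not separate evidence.

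**Figure D5:**
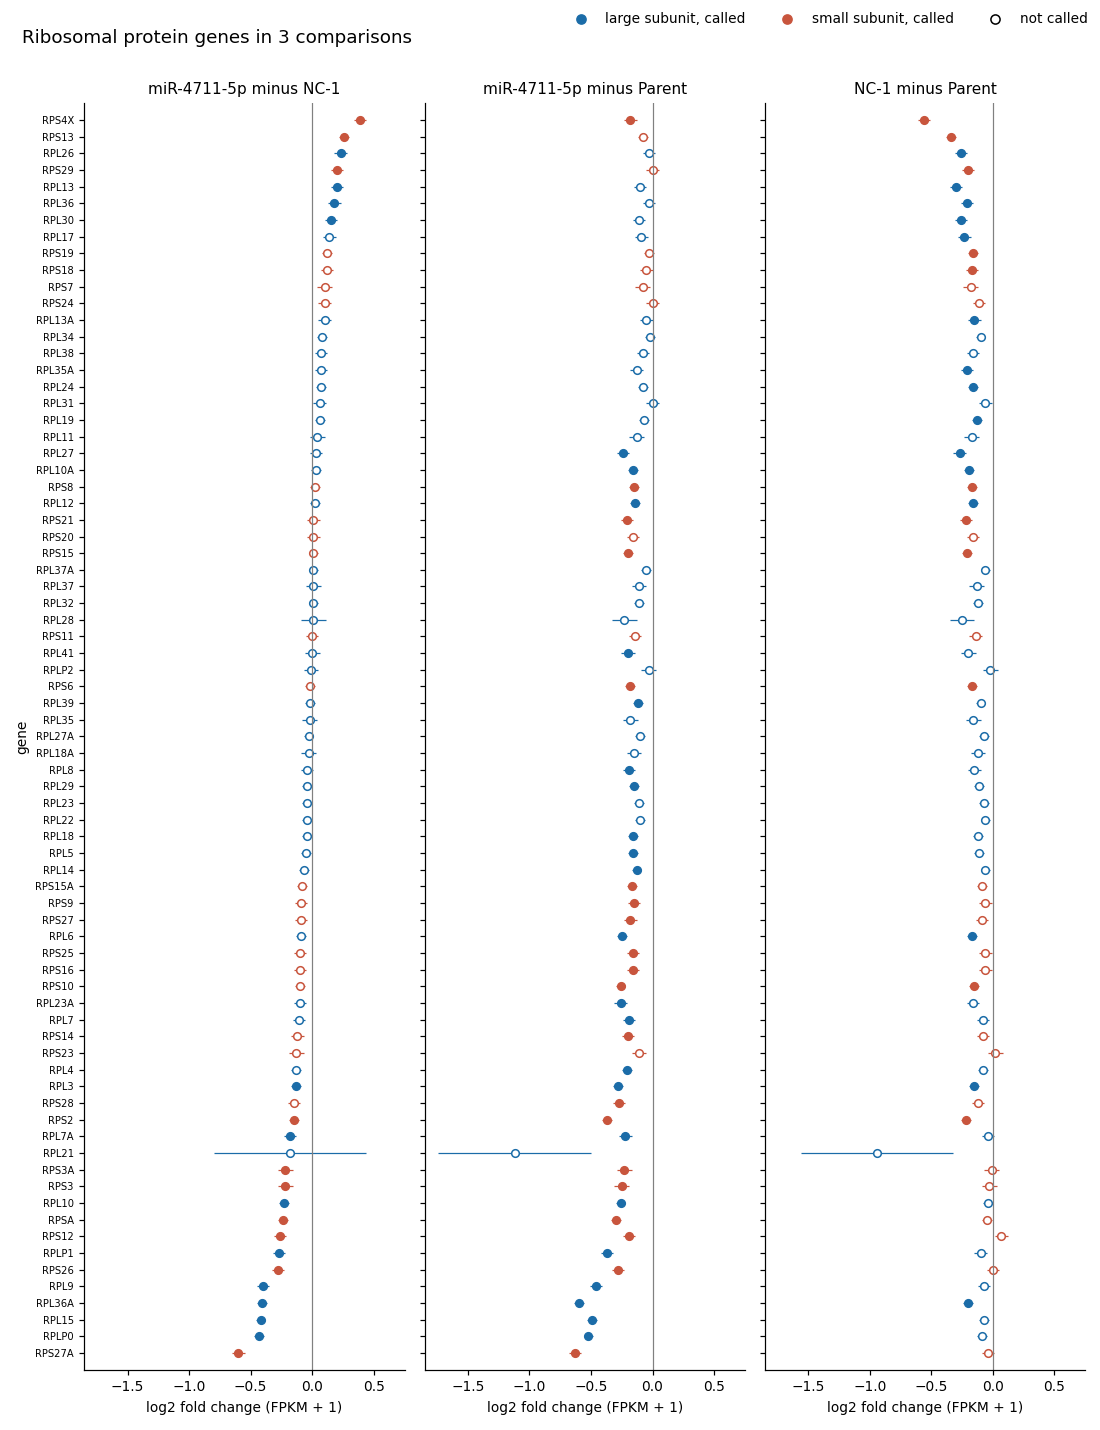
Log2 fold change of 75 members, on the scale as deposited, in the 3 comparisons, ordered by miR-4711-5p minus NC-1, with bars of 1 standard error. Filled points are called by limma, blue for the large and red for the small subunit, and RPS27A is at the bottom with -0.60 and RPS4X at the top with 0.39. Of all 76 members, 43 and 26 are called against Parent, all lower, and these counts depend on the scale (14 and 8 after rescaling to an equal sum of FPKM, 6 and 6 after quantile normalization, which also calls 13 and 3 higher).

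RPL5 and RPL11 form a particle with a small ribosomal RNA that, when free, binds MDM2 and restrains it. RPL5 was at 1055 and 1087 FPKM in Parent, 997.5 and 982 in NC-1, and 946 and 968 with miR-4711-5p. RPL11 was at 2011 and 2030, 1900.0 and 1693, and 1797 and 1887 FPKM. Neither was called against NC-1, with log2 fold changes of -0.05 and 0.04. Against Parent RPL5 was lower by -0.16 (limma adjusted p = 0.0122), which held in 11 of the 16 other settings and not with an equal sum of FPKM, and RPL11 had -0.13 (limma adjusted p = 0.106). MDM2 itself had means of 9.72, 13.01 and 8.29 FPKM in Parent, NC-1 and miR-4711-5p and was lower against NC-1 by -0.59. It was higher in NC-1 than in Parent by 0.39 (limma adjusted p = 0.0202). For miR-4711-5p against Parent it had -0.21 and was not called (limma adjusted p = 0.0974). The study cites earlier work of its authors in which MDM2 mRNA was a target of miR-4711-5p. A link of the MDM2 values to RPL5 and RPL11 was not tested.

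Besides RPL26, which was higher against NC-1, the proteins RPL17, RPL19, RPL23A, RPL31 and RPL35 lie around the exit of the peptide tunnel. These 5 had 0 calls against NC-1 by limma, with log2 fold changes from -0.10 to 0.14, and at an unadjusted p below 0.05 RPL17 alone would have been called. Against Parent RPL23A was lower by -0.26 (limma adjusted p = 0.00779), a call that an equal sum of FPKM, quantile normalization and leaving out the first Parent or the first miR-4711-5p library ended, and the others had -0.18 to 0.00. RPL31 was at the top of the family against Parent with 0.00, and RPS24, RPL34, RPL26 and RPS29 followed with -0.03 to 0.00. No member was called higher than Parent on the scale as deposited, where 4 were after rescaling to an equal sum of FPKM.

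Further members are known for separate roles. RPS6, the substrate of the S6 kinases, had -0.02 against NC-1 and -0.18 against Parent (limma adjusted p = 0.00745). RPS19, the gene most often mutated in Diamond-Blackfan anaemia, had 0.12 and -0.03 and was called in neither. RPL24, of the bridge between subunits, had 0.07 and -0.08, and RPL22 had -0.04 and -0.10, with no call. RPS28 and RPS27 had -0.15 and -0.09 against NC-1 with no call, and -0.27 and -0.18 against Parent, where both were called. These calls of RPS6, RPS28 and RPS27 against Parent were lost with an equal sum of FPKM and under quantile normalization. RPL41 and RPL39, the shortest proteins of the family, had 0.00 and -0.02 against NC-1 and were lower against Parent by -0.20 and -0.12, of which that of RPL39 became 0.02 with an equal sum of FPKM. The calls of RPL41 and RPL39 held in 8 and 5 of the 16 other settings.

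Some members have a paralog that can take their place in part of the ribosomes. Of 8 paralogs looked at, 6 had a mean of at least 1 FPKM. RPL22L1 was at 8.64 and 8.84 FPKM in Parent, 8.46 and 8.41 in NC-1, and 10.9 and 11.7 with miR-4711-5p. Its miR-4711-5p libraries were above the 4 others, and the log2 fold change was 0.39 against NC-1 (limma adjusted p = 0.00228) and 0.34 against Parent. RPL22, which is known to restrain RPL22L1, ranged from 254 to 278 FPKM. RPL39L had -0.59 and RPL26L1 -0.18 against Parent, both called lower (limma adjusted p = 0.0141 and 0.049), and RPL7L1, RPL36AL and RPS27L were not called in any comparison. RPL10L is listed at 0, and RPL3L, the form of striated muscle, was at most at 0.0603 FPKM. GNB2L1, the scaffold protein RACK1 of the small subunit, had -0.05 against NC-1 and was lower by -0.22 against Parent. This call was lost with an equal sum of FPKM (-0.08) and without the first Parent (-0.21) or the first miR-4711-5p library (-0.18). That of RPL26L1 was lost with an equal sum too (-0.05).

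Further mRNAs that carry a TOP start encode translation factors and other proteins. Of 22, 4 were lower and 2 higher against NC-1 (4 and 5 with an equal sum of FPKM), 8 lower and 1 higher against Parent, and NC-1 had 5 lower and 0 higher against Parent. Against Parent these counts turned with an equal sum of FPKM, to 2 lower and 5 higher for miR-4711-5p and 0 lower and 2 higher for NC-1. The list's median against NC-1 was -0.03, equal to that of the members, and became 0.02 with an equal sum, and that against Parent went from -0.08 to 0.06. As shares, 18.2% were lower against NC-1 and 36.4% against Parent, beside 21.2% and 24.7% of all genes. The largest called differences were those of VIM (0.52), SNHG1 (0.46), a non-coding host of small nucleolar RNAs, TPT1 (-0.30) and HNRNPA1 (-0.26). Leaving out the first miR-4711-5p library gave 2 lower and 1 higher against NC-1, leaving out the second gave 1 higher, and leaving out the second NC-1 library gave 4 higher. The 8 became 3 and 4 without the first and the second miR-4711-5p library and 4 and 5 without the first and the second Parent library. The 5 became 0 and 1 without these Parent libraries, 2 without either NC-1 library and 1 without either miR-4711-5p library. VIM lost its call without either miR-4711-5p library, with 0.51 and 0.52.

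Among 18 regulators of TOP mRNAs and of mTOR signalling, 6 were lower and 2 higher against NC-1, and 7 lower and 3 higher against Parent. The shares called lower were 33.3% and 38.9%, beside 21.2% and 24.7% of all genes. With an equal sum of FPKM they were 5 lower and 2 higher against NC-1, and the balance against Parent turned, to 4 lower and 6 higher, with a median that went from -0.10 to 0.03. The 2 became 1 without the first NC-1 library or either miR-4711-5p library. LARP1, the protein that binds the TOP start, was at 55.9 and 53.6 FPKM in Parent, 51.2 and 52.3 in NC-1, and 34.2 in each miR-4711-5p library. Both were below the 4 controls, and the log2 fold change was -0.58 against NC-1 (limma adjusted p = 0.000106) and -0.66 against Parent. EIF4EBP1, a repressor of cap binding that mTOR inactivates, had -0.85 against NC-1, EIF4EBP2 had -0.53, and LARP4 had 0.75, and all of these were called. Against Parent the same genes had -1.01, -0.28 and 0.33, also called. In NC-1 against Parent EIF4EBP2 was called higher (0.25) and LARP4 lower (-0.42), and EIF4EBP1 had -0.16 with no call.

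Genes whose products assemble ribosomes were counted in the same way, and their difference from the members was not tested. Of 40 ribosome biogenesis genes, 24 (60.0%) rose against NC-1 with miR-4711-5p and 1 (2.50%) fell, beside 18.4% and 21.2% of all genes, with a median log2 fold change of 0.23, or 0.29 after rescaling to an equal sum, which called 30 higher and 1 lower. In NC-1 against Parent 22 (55.0%) were lower, beside 15.1% of all genes, and 1 higher. In miR-4711-5p against Parent 13 (32.5%) were higher, beside 18.7%, and 4 lower, with a median of 0.05. With an equal sum of FPKM the 22 became 11, and the 13 and 4 became 22 and 1, with a median of 0.18. The 13 became 6 without the first miR-4711-5p library, and the 22 became 10 and 12 without the first and the second Parent library, 11 without the second NC-1 library and 14 without either miR-4711-5p library. The 4 became 2 without the first Parent or the second miR-4711-5p library and 1 without the second Parent or the first miR-4711-5p library. The 1 gene higher in NC-1 became 0 without the first Parent, either NC-1 or either miR-4711-5p library. The largest changes against NC-1 were those of NOP16 (0.62), GRWD1 (0.59), POLR1C (0.59), a subunit of RNA polymerases that make ribosomal RNA, and RRP1 (0.52). The gene called lower was FBL, the methyltransferase of ribosomal RNA, at 213, 181 and 141 FPKM in the means of Parent, NC-1 and miR-4711-5p, with -0.36.

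The ribosomal proteins of mitochondria, which are encoded by separate nuclear genes, were compared in the same way. Of 77, 26 (33.8%) were higher and 7 (9.09%) lower against NC-1, beside 18.4% and 21.2% of all genes, with a median of 0.12. The 26 became 13 without either miR-4711-5p library and 17 without the second NC-1 library. In NC-1 against Parent 46 (59.7%) were lower, beside 15.1%, and 0 higher by limma, with a median of -0.24, and no member of this list was higher at an unadjusted p below 0.05. The 46 became 22 and 27 without the first and the second Parent library and 25 and 29 without the first and the second NC-1 library. In miR-4711-5p against Parent 29 (37.7%) were lower, beside 24.7%, and 4 higher, with a median of -0.12, which became 0.02 with an equal sum of FPKM. With that scaling the 29 and 4 became 16 and 8, and the 46 became 27, with a median of -0.16. The 29 became 19 without the first Parent or the second miR-4711-5p library and 16 without the first miR-4711-5p library, and the 4 became 1 without any of the Parent and miR-4711-5p libraries in turn. The largest called differences against NC-1 were -1.22 for MRPS14, -0.67 for MRPS35 and -0.65 for MRPS27.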

How the data were processed

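RNA of BxPC-3 cells was sequenced in 6 libraries, 2 each for Parent, NC-1 and miR-4711-5p. According to the methods, stranded mRNA libraries were read for 75 bases from a single end, and reads were mapped to hg19 with TopHat, Bowtie2 and SAMtools. The authors deposited FPKM per gene symbol, which Cuffnorm had normalized for exon length and library size, and not read counts. The submitters' processing notes list TopHat2 2.1.1, Bowtie2 2.3.5.1, SAMtools 1.2 and Cufflinks 2.2.1, and the methods give other versions of the mapping tools. The gene annotation and the use of strand in counting are not given in the sources used here. Reads shared with pseudogenes may have been divided between rows, so the level of a member can differ from that of its mRNA.

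Groups were taken from the sample labels. Of the genes, 12040 had a mean of 1 FPKM or more, and their log2(FPKM + 1) was fitted with limma 3.58.1 in R 4.3.3, with all 3 groups in a single fit and a trend of variance on level (3 residual and 4.15 prior degrees of freedom). Tests were two-sided, adjusted by Benjamini-Hochberg and called below 0.05. A log2 fold change is on the scale of log2(FPKM + 1), which understates changes of low genes. The step was tested on simulated data. Shares, sums and figures were made with Python 3.11.15, pandas 2.3.3, numpy 2.4.6 and matplotlib 3.10.9. Median-of-ratios factors were 1.006 or 1.007 in each library, and factors to an equal sum of FPKM were between 0.949 and 1.06. No depth in reads is known, and relative depth was read from the steps between values under 0.1 FPKM.

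The members and the gene lists were chosen with earlier results of these data known. Members were named by level (5 highest, 5 lowest), by fold change (the 5 largest of each sign for miR-4711-5p, 3 for NC-1 against Parent) and by role. Lists were described by counts and up to 4 called genes with the largest change against NC-1. RPL3, RPL6, RPL7A, RPL14, RPL27, RPL30, RPL36, RPS3A, RPS15 and FBL are outside this rule and were named after their values were seen. The results of some genes and 1 member's values are not reported here. Promoter and miRNA sequences are RefSeq on GRCh38.p14, and 14 members had no RefSeq start. Transcripts are GENCODE v44 lifted to GRCh37, matched by symbol. Alternatives were other scalings, filters and pseudocounts, a fit without the trend, a fit of the compared groups alone, a replicate block, and leaving out each library. The equal sum and the difference between subunits without RPL21 were added after seeing the data.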

Additional observations from a re-analysis of the deposited data

How the results depend on the processing

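With NC-1 as the reference, the 16 lower members became 9 with no filter on low genes and 9 to 17 when a library was left out. The 7 higher became 3 with no filter, 15 with an equal sum of FPKM, 19 with quantile normalization, 4 without the trend, 4 when an absolute log2 fold change of at least 0.2 was also required, and 2 to 7 when a library was left out. For miR-4711-5p against Parent, the 43 lower became 19, 14, 6, 28 and 23 under the same settings and 15 to 48 when a library was left out, and the 0 higher became 4 with an equal sum and 13 with quantile normalization. For NC-1 against Parent, the 26 lower became 4, 8, 6, 10 and 13, 15 when only the compared groups were fitted, and 3 to 17 when a library was left out, and the 0 higher became 3 with quantile normalization. The cause was not tested. A pseudocount of 0.1, a mean of at least 10 FPKM and median-of-ratios factors, with or without the members, kept each count within 1.5 times its value. These 4 settings could change little, since each member averaged at least 130 FPKM and the factors lay between 1.005 and 1.008. They are among the 16 other settings, and the call of RPL13A in NC-1 against Parent held in these 4 alone. An equal sum shifted the members by a median of 0.14 for miR-4711-5p against Parent, and 28 of 76 turned from negative to positive. The 5 of these with a call on either scale were RPL14, RPL34, RPL39, RPS19 and RPS24, at 0.01, 0.12, 0.02, 0.11 and 0.14. In NC-1 against Parent 22 turned and against NC-1 13. Over all genes, limma called 2255 higher and 2975 lower for miR-4711-5p against Parent, 1456 and 1823 for NC-1 against Parent, and 2214 and 2549 for miR-4711-5p against NC-1, and with an equal sum 4010 and 1776, 2327 and 1000, and 2923 and 2083.

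The difference of 0.07 between subunit medians against NC-1 was 0.01 with quantile normalization and 0.03 to 0.07 when a library was left out. The share of the members in the summed FPKM, 18.8% in Parent, 18.2% in NC-1 and 18.2% with miR-4711-5p, was 15.2%, 14.7% and 14.9% without the 5 highest members. Over the named genes and comparisons, leaving out a library kept 1069 results on their side of the threshold, took the call from 199 and gave one to 18, and turned the sign of 46 that had no call. Over all genes tested, the deviations of same-numbered libraries had correlations of 0.061, 0.00301 and -0.00892 between groups. With 2 libraries a group, these values cannot settle whether replicate numbers pair the libraries. With a replicate block, 15 members were lower and 7 higher against NC-1, 44 lower and 0 higher for miR-4711-5p against Parent, and 21 and 0 for NC-1 against Parent. The depth of the libraries in reads is unknown, so the counting error of a value cannot be given.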
